A study of Homo sapiens with 11 samples.

Results

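MDA-MB-231 is an established line of triple-negative breast cancer cells, and the regions described here are the mH2A1.1 peaks of intermediate width that lay at promoters in these cells and were shared with mH2A1. They were chosen by 3 properties of the peak lists. A peak had to be 6 to 21 kb wide, to overlap an mH2A1 peak by at least 1 bp, and to overlap the 1 kb either side of the transcription start site (TSS) of a protein-coding gene. Of 30687 mH2A1.1 peaks, 1400 met the rule, and 1706 protein-coding genes started at them. The study profiled chromatin with a custom polyclonal antibody against mH2A1.1 and with the Abcam antibody Ab37264 against mH2A1, 1 library each, so peak positions had no replicate check. RNA was sequenced from 2 WT libraries, given the transfection reagent without siRNA, and from 2 mH2A1.1 KD libraries, given 11 nM siRNA against mH2A1.1, all collected after 3 days.

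MacroH2A1 (mH2A1) is a histone H2A variant that carries a large globular macrodomain outside the nucleosome core. The gene MACROH2A1 gives rise to the splice isoforms mH2A1.1 and mH2A1.2, and the macrodomain of mH2A1.1 binds ADP-ribose. The variant is best known from silent chromatin such as the inactive X chromosome, and it also occurs at promoters and enhancers of active genes.

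The WT libraries held 9794674 and 7856892 gene counts and the KD libraries 5584962 and 2309549. KD replicate 2 stood apart, with 0.0013% of its counts on chromosomes 21, 22 and X against 6.23 to 6.57% in the other libraries, so these chromosomes were left out of the KD test. The mesenchymal and basal markers VIM, CD44, EGFR and AXL reached 201 to 2350 TPM (transcript abundance scaled for gene length and library size) in WT cells, and ESR1 and PGR had no count in any library. Other luminal markers were present, with KRT19 at 556 and 596 TPM, EPCAM at 40.8 and 44.1, GATA3 at 26.9 and 26.5 and CDH1 at 1.90 and 2.00 TPM in WT. The leukocyte marker CD3E and the endothelial marker CDH5 had at most 1 count in a library, and the endothelial marker PECAM1 had 29 and 26 counts in WT and 29 and 9 in KD. The labels do not say that libraries came from separate cultures, so p-values measured the spread between these libraries, which may be technical.

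The promoters shown here belong to the genes at these peaks with the smallest KD p-values in each direction, described further on, so that the sequence under a peak can be read beside its transcript. They are RefSeq promoter sequences (GRCh38.p14), cut to the bases before the RefSeq start and outside annotated UTRs, with every match of the motifs named after them, on either strand, in capitals. DHCR7 (chr11:71448436-71448643, minus strand), ADAM19 (chr5:157575776-157576025, minus), HKDC1 (chr10:69220082-69220331, plus), STK17B (chr2:196171579-196171828, minus) and DDAH1 (chr1:85578364-85578450, minus) are printed 5′ to 3′. The window of COPS4, also in the chosen set, lay wholly in an annotated UTR and is named only.

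DHCR7: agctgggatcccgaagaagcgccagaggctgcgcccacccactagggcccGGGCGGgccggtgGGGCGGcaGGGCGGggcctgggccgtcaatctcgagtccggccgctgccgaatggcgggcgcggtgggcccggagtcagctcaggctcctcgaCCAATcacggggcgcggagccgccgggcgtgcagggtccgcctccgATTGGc
ADAM19: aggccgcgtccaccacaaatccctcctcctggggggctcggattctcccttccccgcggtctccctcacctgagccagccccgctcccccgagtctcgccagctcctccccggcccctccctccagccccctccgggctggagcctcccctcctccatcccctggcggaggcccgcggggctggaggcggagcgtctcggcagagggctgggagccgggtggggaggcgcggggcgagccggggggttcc
HKDC1: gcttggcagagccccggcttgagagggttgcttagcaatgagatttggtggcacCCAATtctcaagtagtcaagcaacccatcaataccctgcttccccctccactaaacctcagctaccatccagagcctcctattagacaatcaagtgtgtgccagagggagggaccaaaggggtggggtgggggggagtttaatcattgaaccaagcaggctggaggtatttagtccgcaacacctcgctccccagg
STK17B: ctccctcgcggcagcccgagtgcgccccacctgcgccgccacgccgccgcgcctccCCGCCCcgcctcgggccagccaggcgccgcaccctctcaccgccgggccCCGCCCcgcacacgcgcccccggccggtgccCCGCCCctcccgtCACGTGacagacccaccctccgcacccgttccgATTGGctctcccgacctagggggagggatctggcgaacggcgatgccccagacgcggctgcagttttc
DDAH1: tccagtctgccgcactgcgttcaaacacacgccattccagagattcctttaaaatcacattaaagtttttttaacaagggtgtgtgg

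The windows differed in base composition. Over the full 250 bases the STK17B window held 35 CpG dinucleotides, DHCR7 30 and ADAM19 21, whereas COPS4 held 7, DDAH1 5 and HKDC1 3. GGGCGG occurred 4 times in DHCR7 and 3 times in STK17B, and none of the 5 motifs searched occurred in ADAM19 or DDAH1. The DHCR7 match at −19 from the RefSeq start lay in an annotated UTR and is not among the printed bases. The motifs, sought on both strands, were TATAAA (the TATA box), CCAAT (the element bound by NF-Y), GGGCGG (the GC box of Sp factors), CACGTG (an E-box) and TGACTCA (the AP-1 element). All 250 bases of 5 of these windows lay inside the mH2A1.1 peak. The DHCR7 window lay outside it, because its RefSeq start was 4475 bp from the GENCODE gene start that placed the gene at the peak. Of 1704 gene symbols at these peaks, 1295 matched the RefSeq promoter table. Their 250-base windows held a median of 20 CpG, against 17 over all protein-coding genes and 11 over the whole table. GGGCGG was found in 66.4% of them, against 56.7% over all protein-coding genes and 42.3% of all promoters in the table. For CCAAT the shares were 32.9%, 34.8% and 33.0%, for CACGTG 8.34%, 7.85% and 6.49%, for TATAAA 5.71%, 9.23% and 11.1%, and for TGACTCA 4.02%, 3.17% and 4.16%. Within the set, GGGCGG was found in 77.8% of the 698 matched promoters of genes with a TPM of at least 10 and in 44.04% of the 193 of genes without a count in WT cells. The promoters of broad common peaks held it at nearly the same share, 66.3%, as did those of mid-width peaks found with mH2A1.1 only, 66.7%.

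The 1400 peaks covered 18.5 Mb of the genome. Peaks were called on a grid of 3 kb bins, so members held 2 to 7 bins, and the 12 kb width was the most frequent, with 286 peaks, followed by 258 of 9 kb and 255 of 15 kb. The narrowest members, of 6 kb, numbered 206 and the widest, of 21 kb, 189. Just outside the rule lay 317 common promoter peaks of 3 kb and 177 of 24 kb. The share with an expressed gene was 66.8 to 72.0% over the 6 member widths, 62.5% (interval 56.8 to 68.0) at 3 kb and 65.9% (58.4 to 72.9) at 24 kb, and the intervals at 3 and 24 kb overlapped those at 6 and 21 kb.

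**Figure D1:**
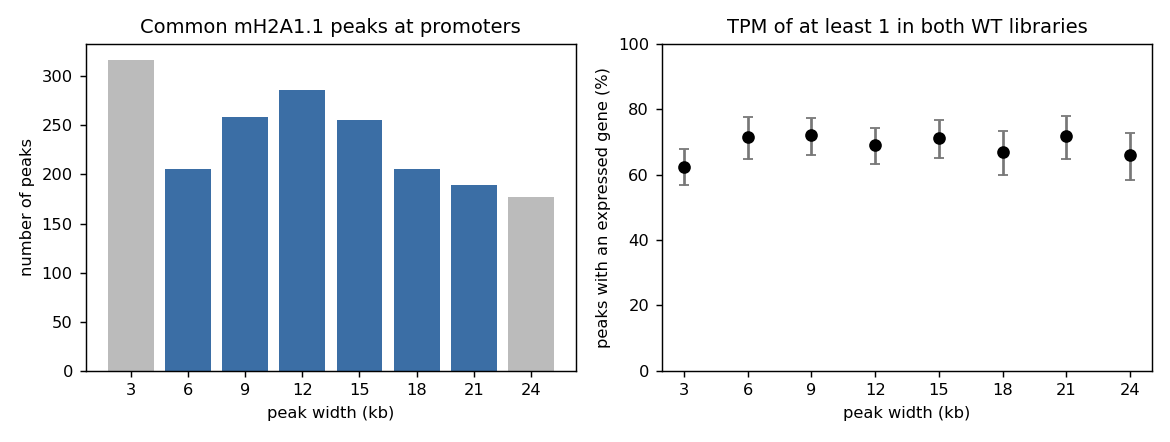
Left, number of common mH2A1.1 peaks at promoters by peak width (kb), members in blue and the neighbouring widths outside the rule in grey. Right, percent of these peaks with an expressed gene (TPM of at least 1 in both WT libraries) with 95% exact binomial intervals, which overlapped among the 6 member widths.

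Overlap with mH2A1 was part of the rule, so its extent is given only as a description. Of the length of the members, 55.0% lay inside mH2A1 peaks. In 589 members a single bin was shared, and 338 members (24.1%) lay wholly inside an mH2A1 peak. In 679 cases (48.5%) mH2A1 extended beyond the member. Widths were compared with the first overlapping mH2A1 peak by position, since 30 members overlapped 2. The median width of this mH2A1 peak was 9 kb. It was narrower than the member in 773 cases, wider in 511 and of the same width in 116.

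The members were rich in G and C. Their median GC content was 50.8% (quartiles 47.6 to 54.1%) against 40.9% for the genome, and their median observed-to-expected CpG ratio was 0.355. Mid-width common peaks away from promoters, 4236 in number, had a lower median GC content (47.5%) and CpG ratio (0.245). Broad common peaks at promoters, of 24 kb or more and 1509 in number, had 51.8% and 0.316, and the 888 mid-width promoter peaks found with mH2A1.1 only had 49.2% and 0.398. The 317 single-bin common peaks at promoters had 52.8% and 0.510, both above the members. Among members the median CpG ratio was 0.401 at 6 kb and 0.342 at 21 kb, so it varied with peak width. The classes differ in width, and its part in their differences was not tested. These are descriptions of 1 peak list, without a test.

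Most members held 1 TSS. In 1150 members there was 1 protein-coding TSS, in 201 there were 2, in 43 there were 3, in 5 there were 4 and in 1 there were 5. In 55 members a pair of genes started in opposite directions within 1 kb of each other. The peak with most starts, chr3:50343001-50364000, was 21 kb wide, shared 1 of its 7 bins with mH2A1, and held ZMYND10, NPRL2, CYB561D2, TMEM115 and ENSG00000272104. TMEM115, a Golgi membrane protein, reached 95.4 and 117 TPM in the WT libraries, and NPRL2, a subunit of the GATOR1 complex that restrains mTORC1, 18.8 and 24.3 TPM. CYB561D2, a cytochrome b561 family protein, reached 12.3 and 15.2 TPM and ZMYND10, needed for assembly of ciliary dynein arms, 0.545 and 1.55 TPM, whereas ENSG00000272104 was not listed in the count tables. Active and weakly transcribed genes thus lay under the same peak. The next, chr11:72102001-72123000, also shared 1 of 7 bins and held LAMTOR1, TOMT, ANAPC15 and FOLR3. LAMTOR1, which anchors the Ragulator complex to lysosomes, reached 100.2 and 110.4 TPM and ANAPC15, a subunit of the anaphase-promoting complex, 36.6 and 38.3 TPM. FOLR3, a folate receptor gene, had no count in any library, and TOMT was not listed in the count tables. Over the 179 members with 2 measured genes, both were expressed in 95, 1 in 60 and none in 24.

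The transcripts of these genes spanned the whole range of WT expression. Of the 1706 genes 1637 were measured, and their median level was 12.7 TPM (quartiles 0.264 to 55.3). Of these, 1114 (68.1%, 95% exact binomial interval 65.7 to 70.3) had at least 1 TPM in both WT libraries, 852 (52.0%) had at least 10 TPM in both, and 284 (17.3%) had no count in WT cells. The expression classes use these limits, so a gene short of 10 or 1 TPM in either library falls in the lower class. Over all 18108 measured protein-coding genes the same shares were 63.3%, 49.6% and 23.1%, and the median was 10.4 TPM. By peak rather than by gene, 965 of 1371 members with a measured gene (70.4%, interval 67.9 to 72.8) held an expressed gene, against 74.2% (71.9 to 76.4) of broad common peaks, 62.5% (56.8 to 68.0) of single-bin common peaks and 86.3% (83.8 to 88.5) of mid-width peaks with mH2A1.1 only. By gene, the share expressed was 63.7% (61.9 to 65.5) at broad common peaks, 63.2% (57.7 to 68.4) at single-bin common peaks, 84.2% (81.9 to 86.3) at mid-width peaks with mH2A1.1 only, and 56.6% (55.6 to 57.6) at promoters without an mH2A1.1 peak. The broad class thus lay below the members by gene and above them by peak, and more of its peaks held at least 2 TSSs (45.1% against 17.9%). By peak the intervals of the members and the broad class overlapped, and the members' interval by gene overlapped that of the single-bin class. The intervals cover counting error only, since genes are not replicates of a condition.

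The 5 genes with the highest WT level were EEF1A1, IGFBP4, H4C3, TUBA1B and LDHA. EEF1A1, the translation elongation factor that delivers aminoacyl-tRNA, reached 3183 and 3333 TPM under an 18 kb peak, and IGFBP4, a secreted binding protein for insulin-like growth factors, 2487 and 2566 TPM beside a 21 kb peak. The replication-dependent histone gene H4C3 reached 2251 and 2603 TPM, the alpha-tubulin TUBA1B 2289 and 2383 TPM, and the glycolytic enzyme LDHA 2282 and 2256 TPM. EEF1A1, TUBA1B, LDHA and H4C3 have near-identical copies or pseudogenes, so their counts are uncertain. The mH2A1.1 peak lay mostly on the upstream side at 4 of the 5 genes. Its far edge was 21449 bp upstream of the TSS at IGFBP4, 18932 bp at H4C3, 16559 bp at LDHA and 5603 bp at TUBA1B. At IGFBP4 the whole 21 kb peak lay upstream and did not cover the TSS. At EEF1A1 the peak reached 13586 bp downstream and 4413 bp upstream. At the other end of the range, the cornified envelope genes LCE5A and CRCT1 shared the peak chr1:152499001-152520000, in which 6 of 7 bins were also mH2A1. The neuronal nicotinic receptor subunit CHRNB2 lay at chr1:154554001-154575000, in which 3 of 7 bins were shared. None of these 3 had a count in any library, which allows up to 3 counts per library.

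The position of mH2A1 within these peaks varied with transcription. The rule asked for an mH2A1 peak anywhere under the mH2A1.1 peak and made no use of expression. The TSS itself lay inside an mH2A1 peak at 209 of 284 genes without a count (73.6%, interval 68.1 to 78.6) and at 169 of 239 genes below 1 TPM (70.7%, 64.5 to 76.4). It did so at 127 of 262 genes between 1 and 10 TPM (48.5%, 42.3 to 54.7) and at 328 of 852 genes with at least 10 TPM (38.5%, 35.2 to 41.9). The share was therefore lower at the more strongly transcribed genes, with separate intervals between genes below and above 1 TPM. At broad common peaks the same shares were 79.0%, 73.4%, 63.3% and 41.2%, so the order was not particular to mid-width peaks. Median exon GC content moved along, from 56.9% in genes without a count to 52.6% in genes with at least 10 TPM, and its part in the result was not tested.

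**Figure D2:**
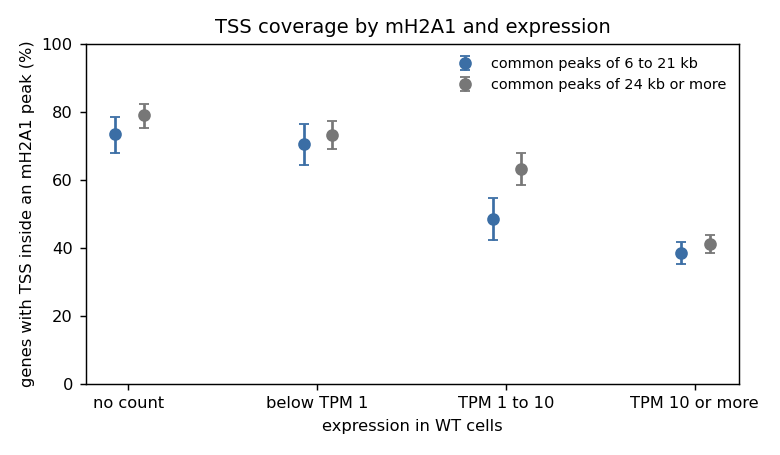
Percent of genes whose TSS lay inside an mH2A1 peak, by expression in WT cells, at common mH2A1.1 peaks of 6 to 21 kb (blue) and of 24 kb or more (grey). Bars are 95% exact binomial intervals. In blue the share falls from 73.6% without a count to 38.5% at 10 TPM or more.

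The same genes differed in which side of the TSS the peak covered. Bins of 3 kb were counted from the bin holding the TSS, in the direction of transcription. At genes with at least 10 TPM, the bin 3 kb upstream was in an mH2A1.1 peak at 80.0% of genes and the bin 3 kb downstream at 52.9%. At genes without a count the shares were 71.5% and 71.8%. For mH2A1 the asymmetry was of the same kind, with 51.3% upstream and 24.3% downstream at genes with at least 10 TPM, against 58.5% and 58.8% at genes without a count. At 12 kb downstream, mH2A1 was present at 14.0% of the former and 38.0% of the latter. Where the TSS lay inside the mH2A1.1 peak, the peak reached a median of 7702 bp upstream and 3637 bp downstream in genes with at least 10 TPM, and 5664 bp upstream and 5790 bp downstream in genes without a count. More of the peak lay downstream than upstream in 266 of 767 of the former (34.7%) and in 121 of 250 of the latter (48.4%). The asymmetry was not particular to mid-width peaks. At broad common peaks, genes with at least 10 TPM had mH2A1.1 at 93.3% upstream and 81.8% downstream, and mH2A1 at 54.3% and 32.6%, again 3 kb from the TSS bin. Genes there without a count had 91.9% and 93.1% for mH2A1.1, and 76.9% and 76.5% for mH2A1. Neighbouring genes at shared peaks are counted separately, and these shares carry no test.

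**Figure D3:**
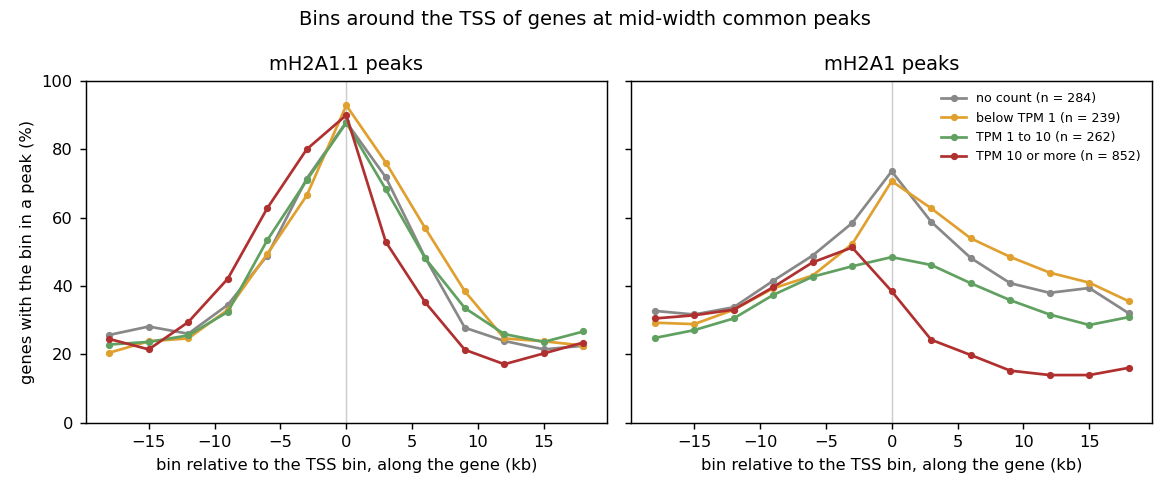
Percent of genes with a 3 kb bin inside an mH2A1.1 peak (left) or an mH2A1 peak (right), by distance of the bin from the TSS bin along the gene (kb, negative upstream), for 4 expression classes of genes at mid-width common peaks. Genes with at least 10 TPM (red, n = 852) fall to 52.9% for mH2A1.1 and 24.3% for mH2A1 at 3 kb downstream.

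Gene families were described through 14 lists. Of all protein-coding genes 8.52% started at a member. Among 40 developmental transcription factors 10 did, of which 7 were expressed. SOX9, a regulator of chondrocyte and stem cell fate, reached 250 and 234 TPM and GATA6, an endoderm and heart regulator, 75.9 and 69.4 TPM, while HOXD10 and MSX1 had no count in any library. Of 30 actin cytoskeleton genes 7 lay at members, among them FLNA, TPM4, ZYX, ACTN1, MYL9 and RHOB, and the actin crosslinker FLNA reached 1958 and 2040 TPM. Glycolysis and lipid synthesis gave 7 of 30 (LDHA, PGAM1, SLC2A1, FASN, INSIG1, HK1 and PFKP), and the glycolytic mutase PGAM1 reached 642 TPM in both WT libraries. All genes of these last lists that lay at members were expressed.

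Of 30 adhesion and matrix genes 5 were at members. CCN1, a matricellular protein and Hippo pathway target, reached 1659 and 1611 TPM, and the laminin receptor subunit ITGA6 582 and 545 TPM. The Hippo list gave 3 of 25, among them TEAD1, the DNA-binding partner of YAP, at 306 and 270 TPM. The immediate early list gave 4 of 25 (KLF6, ATF4, FOS and EGR1), with the zinc finger factor KLF6 at 387 and 363 TPM and the stress response factor ATF4 at 274.5 and 292 TPM. Wnt and Notch signalling gave 4 of 30, with the Wnt co-receptor LRP5 at 154 and 151 TPM and AXIN1, a scaffold of beta-catenin degradation, at 21.6 and 22.3 TPM. Oxidative phosphorylation gave 3 of 30, with the ATP synthase subunit ATP5F1A at 162 and 172 TPM and the cytochrome c oxidase subunit COX5A at 156 and 167 TPM.

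Chromatin regulators gave 3 of 36: MACROH2A1 itself, EZH2, the methyltransferase of Polycomb repressive complex 2, and SUZ12, a further subunit of that complex, at 143 and 140 TPM. The cell cycle list gave only CDK2, a kinase of S phase entry, 1 of 35, at 104 and 111 TPM. No member held a gene of the lists of receptor tyrosine kinase and ERK signalling, TGF-beta and BMP signalling, cytosolic ribosomal proteins or protein folding. Of the 30 ribosomal protein genes, 15 lay at broad common peaks instead. The lists were not tested for enrichment.

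The knockdown was then examined at the same genes. The gene MACROH2A1, whose count covers both isoforms, lay at the member chr5:135390001-135411000, and 4 of the 7 bins of this peak were also mH2A1. Its level was 385 and 394 CPM (counts scaled by library size) in WT and 274 and 300 CPM in KD, and the groups did not overlap. The fitted log2 fold change was −0.44 ± 0.17 (SE), with an adjusted p of 0.205 in edgeR's quasi-likelihood test, which did not pass the threshold of 0.1. The study reported depletion of the mH2A1.1 isoform separately, by RT-qPCR, western blot and immunofluorescence.

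In edgeR's quasi-likelihood test no gene at these peaks passed the thresholds, which were 0.1 for the adjusted p and 1.5 for the fold change. Of the 1637 measured genes 1018 were tested, 526 fell below the filter on low counts and 93 lay on chromosomes 21, 22 and X. edgeR called 0 of the 1018, and 0 of 10963 genes tested in all (background 0% in each direction), with a smallest adjusted p of 0.176. At an unadjusted p under 0.05, 172 member genes (16.9%) were higher in KD and 69 (6.78%) lower, against backgrounds of 11.8% and 11.4% over all genes tested. In 436 (42.8%) both KD libraries lay above both WT libraries and in 226 (22.2%) below, against 32.5% and 32.4%. DESeq2, the tool of the study, gave an adjusted p for 709 member genes and called 60 (8.46%) higher and 22 (3.10%) lower, against 5.59% and 5.86% of all genes with an adjusted p.

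This lean towards higher levels moved with base composition. The median log2 fold change of member genes was 0.19, against 0.0082 over all genes tested, and 667 (65.5%) were above 0 against 50.6%. The lean was not particular to the members. At broad common peaks the median was 0.37 (79.9% above 0), and at mid-width peaks with mH2A1.1 only 0.093 (56.8%). At single-bin common peaks it was −0.0055 (49.0%), and at promoters without an mH2A1.1 peak −0.13 (40.3%). Median exon GC content was 53.1% in the member genes and 47.0% in all genes tested. In the lowest quartile of exon GC content the members had a median of −0.47 (n = 66) and all protein-coding genes tested −0.44. In the highest quartile they had 0.43 (n = 418) and 0.45. With each library's trends over exon GC content and length removed, the member median was −0.011 against 0.0011 over all genes. edgeR then called 21 member genes (2.06%) higher and 39 (3.83%) lower, against 2.23% and 3.34% over all genes, so the shares were near the background. DESeq2 with the same correction called 16 (2.19%) higher and 25 (3.42%) lower, against 2.59% and 2.71%. KD replicate 2 weighed on the uncorrected value, as the median was 0.08 without it and 0.32 without KD replicate 1. edgeR called 31 member genes higher and 41 lower without KD replicate 2, and 328 and 106 without KD replicate 1, against 2.74% and 5.31%, and 20.4% and 21.4%, of all genes in those fits. Genes whose TSS lay inside an mH2A1 peak (n = 409) and outside (n = 609) had the same uncorrected median of 0.19. Their median exon GC content was 54.8% and 52.3%. With the trends removed the medians were −0.025 inside and 0.0021 outside. The corrected edgeR fit called 10 higher and 22 lower of the 409 inside, and 11 and 17 of the 609 outside. The difference between these groups was not tested.

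**Figure D4:**
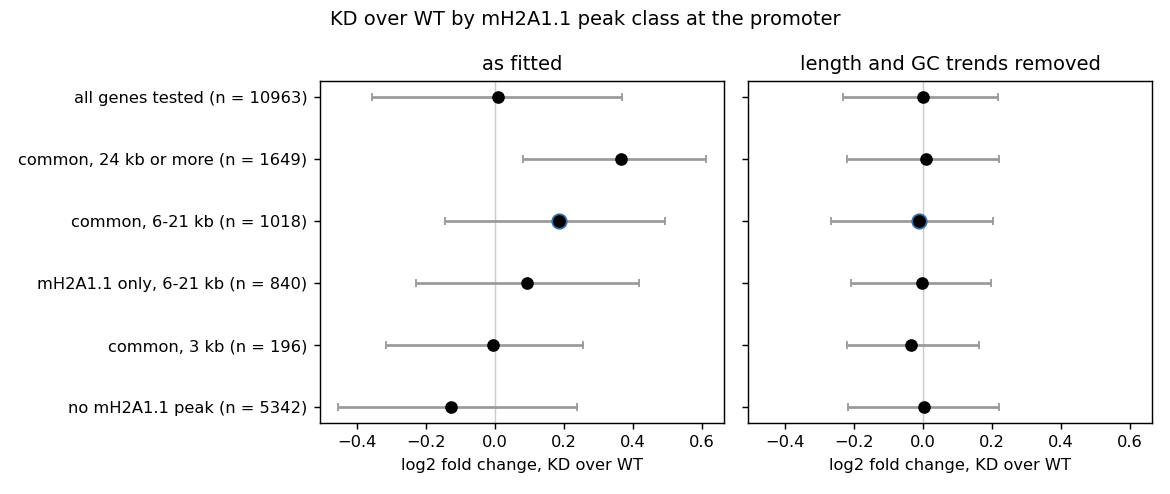
Median (point) and quartiles (bars) of the log2 fold change, KD over WT, of tested genes by the class of mH2A1.1 peak at their promoter, as fitted (left) and with the length and GC trends of each library removed (right). Genes at mid-width common peaks (blue ring) move from 0.19 to −0.011, and all genes tested from 0.0082 to 0.0011.

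The 6 member genes with the smallest p-values in each direction did not pass the uncorrected edgeR test, with adjusted p-values of 0.176 to 0.191, and all but AHNAK2 and OSR1 passed in edgeR once the trends were removed. DHCR7, the enzyme of the last step of cholesterol synthesis, lay at a 6 kb peak and had 67.5 and 67.2 CPM in WT and 147 and 196 CPM in KD. Its fitted log2 fold change was 1.34 ± 0.21 (SE), and the trend-corrected value was 0.98 ± 0.09 with an adjusted p of 0.00591 in edgeR. ADAM19, a membrane metalloprotease, had 90.6 and 100.7 CPM in WT and 197 and 228 CPM in KD. HKDC1, a hexokinase family protein, had 9.15 and 8.15 CPM in WT and 21.5 and 30.2 CPM in KD. Both KD libraries lay above both WT libraries in each of these genes. The corrected log2 fold changes of ADAM19 and HKDC1 were 0.91 ± 0.10 and 1.31 ± 0.19, with adjusted p-values of 0.00730 and 0.0180 in edgeR. CLU, a secreted chaperone, had 53.4 and 49.4 CPM in WT and 89.0 and 111 CPM in KD, and its corrected log2 fold change was 0.78 ± 0.11 (edgeR adjusted p 0.0188). AHNAK2, a giant scaffold-like protein, had 290 and 275 CPM in WT and 510 and 544 CPM in KD, and OSR1, a zinc finger transcription factor, 21.7 and 21.6 CPM in WT and 38.5 and 40.2 CPM in KD. Their uncorrected log2 fold changes of 0.90 and 0.86 became 0.44 and 0.53 after correction and did not pass the thresholds there.

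Among the genes lower in KD, COPS4, a subunit of the COP9 signalosome, had 45.4 and 48.7 CPM in WT and 17.4 and 17.5 CPM in KD, at a 9 kb peak whose 3 bins were all shared with mH2A1. Its corrected log2 fold change was −1.30 ± 0.15, with an adjusted p of 0.00825 in edgeR. STK17B, a kinase linked to apoptosis, had 145 and 122 CPM in WT and 53.3 and 34.5 CPM in KD. DDAH1, which degrades the nitric oxide synthase inhibitor ADMA, had 296 and 285 CPM in WT and 141 and 112 CPM in KD. All KD values of these genes were below all WT values. DDAH1 shared its 15 kb peak with CCN1, which had 1229 and 1227 CPM in WT and 1292 and 1923 CPM in KD and passed no threshold. SH2B3, a signalling adaptor, had 187 and 198 CPM in WT and 103 and 102 CPM in KD. PPP1CC, a catalytic subunit of protein phosphatase 1, had 347 and 331 CPM in WT and 167 and 96.4 CPM in KD. ZNF28, a zinc finger protein, had 33.7 and 32.6 CPM in WT and 17.0 CPM in both KD libraries. The 6 genes fell in the corrected edgeR fit, with log2 fold changes of −0.68 for ZNF28 to −1.30 for COPS4 and adjusted p-values from 0.00591 to 0.0597. ZNF28 did not pass in DESeq2 with the same correction (log2 fold change −0.65, adjusted p 0.166). Genes of one zinc finger family can share reads, so the ZNF28 count is uncertain.

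**Figure D5:**
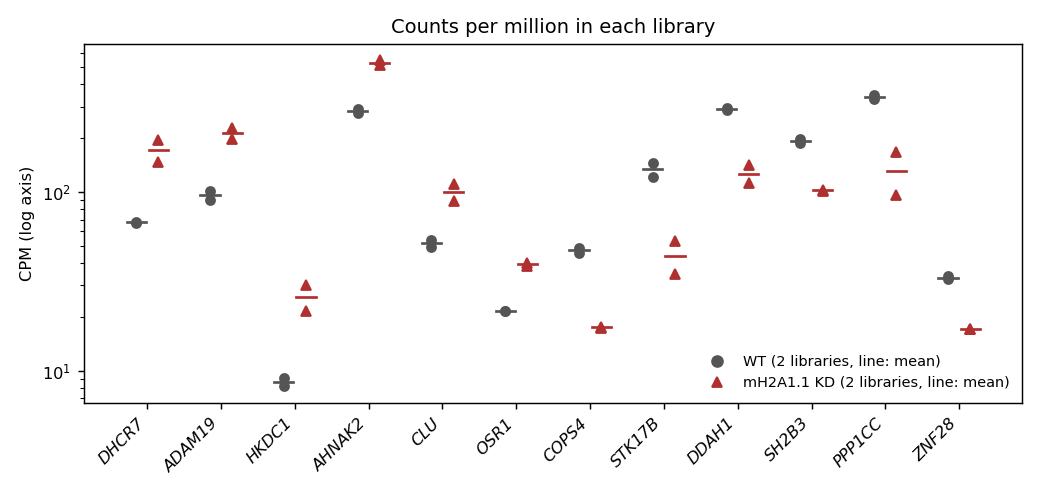
CPM (log axis) of the 12 genes at mid-width common peaks with the smallest p-values, 6 higher and 6 lower in KD. Each point is 1 library, WT as circles and mH2A1.1 KD as triangles, and lines are means of 2. In each of the 12 genes the KD points lie wholly above or wholly below the WT points.

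The 12 genes were selected for their KD p-values, so their separation is a description. Of the 60 member genes called with the trends removed and the 82 called by DESeq2 without the correction, 27 were called by both in the same direction, which is 27 of 60 and 27 of 82. These 27 comprised 14 higher and 13 lower in KD, 1.97% and 1.83% of the 709 member genes tested by both, against 1.22% and 2.13% of the 7638 genes tested by both in all. They included the cytokine IL6, at 102 and 93.8 CPM in WT and 50.8 and 58.1 CPM in KD, and SFN, the 14-3-3 sigma protein, at 74.0 and 78.2 CPM in WT and 134 and 292 CPM in KD. Both were picked after their values were seen.

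In the gene lists the uncorrected edgeR fit called no member gene. With the trends removed it called 4 of the 41 list genes at members that were tested, all lower in KD (9.76% against the background of 3.34%) and none higher (background 2.23%). These were HOXB9, a body-axis transcription factor, RHOB, a small GTPase, and the immediate early factors FOS and EGR1. FOS had 180 and 183 CPM in WT and 103 and 145 CPM in KD, with a corrected log2 fold change of −0.88 (edgeR adjusted p 0.0113). EGR1 had 47.0 and 44.3 CPM in WT and 25.5 and 48.7 CPM in KD, so its groups overlapped. Over the whole immediate early list, the corrected fit called 1 of 22 tested genes higher and 5 lower, beside the same backgrounds. DESeq2 called PAX8, COL5A1, MYL9, LRP5, HK1 and FASN higher among the 36 list genes at members with an adjusted p (16.7% against 5.59%) and none lower (background 5.86%), and of these 6 none passed in the corrected edgeR fit. LRP5 showed the weight of KD replicate 2, with 190 and 192 CPM in WT, 262 CPM in KD replicate 1 and 584 CPM in KD replicate 2. SOX9 had 197 and 189 CPM in WT and 151 and 165 CPM in KD, with a corrected log2 fold change of −0.48 that did not reach 1.5-fold. SUZ12, with 187 and 189 CPM in WT and 149 and 94.0 CPM in KD, passed in neither fit.

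Genes without transcripts in WT cells stayed near 0 in KD. Of the 284 member genes with no WT count, 26 had a count in a KD library, 3 had counts in both, and 1, the synaptic vesicle gene SV2A, had more than 3 counts in sum, with 2 and 4. Some of the 284 lay on chromosomes 21, 22 and X, where KD replicate 2 has almost no counts. Both KD libraries also held fewer counts than the WT libraries, and the share over all genes without a WT count was not computed. Counts this low were not tested.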

How the data were processed

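ChIP-seq peak lists and RNA-seq count tables of MDA-MB-231 cells were used; input and promoter capture Hi-C were not analysed here. The authors aligned reads to hg38 with STAR 2.5.1 and called ChIP-seq peaks with normR; the listed mH2A1.1 coordinates lie on a 3 kb grid and carry no varying score. The deposited RNA values are raw counts per gene, made by the authors with HTSeq. Peaks were matched to GENCODE release 44 gene starts by strand, and TPM were computed from counts and summed exon length. The members, gene lists and tests were chosen with earlier results of these data known.

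KD and WT were compared with edgeR 4.0.16 (quasi-likelihood, TMM, filterByExpr) in R 4.3.3, with Benjamini-Hochberg adjustment over all genes. Chromosomes 21, 22 and X were left out because KD replicate 2 has almost no counts there. Alternatives were DESeq2 1.42.0, other scaling and filters, lowess trends of each library over exon GC content and length (span 0.3) removed as offsets, a replicate block and leaving out each library. Scripts were tested on simulated data. CPM are TMM-scaled.

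Genes were named by rule: the 5 with the highest WT TPM; the 6 higher and 6 lower in KD with the smallest p among those with a mean count of at least 50; those at the 2 peaks with most starts; the 2 most expressed per list; 3 without counts at the widest peaks; and MACROH2A1. A further 7 genes, which the study shows as tracks, were to be named at a member, and none lay there. Some genes that the rule or the marker lists name are not reported here. Motif searches used the 250 bases before the RefSeq start. Totals of 2309549 to 9794674 counts per library set the precision, and intervals cover counting error only.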

Additional observations from a re-analysis of the deposited data

How the results depend on the processing

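The number of peaks was 815 when at least 50% of the peak had to lie inside mH2A1 peaks, 2116 with the starts of all transcripts and 2349 with all gene types, against 1400. The share with an expressed gene was 77.5% at 0.1 TPM and 61.2% at 5 TPM, against 70.4%, and the share of length inside mH2A1 peaks was 78.6% under the stricter overlap. A stricter peak score could not be tried because all scores are equal.

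KD calls depended on the fit. Over all genes, edgeR called 0, with 2540 at an unadjusted p under 0.05. DESeq2 called 875, edgeR without the filter 2139, and the fits with GC and length trends removed 609 (edgeR) and 419 (DESeq2). Leaving out 1 library gave 2 to 4744 calls, the lone library of an arm being taken to vary like the other arm. At members the same settings gave 0, 82, 209, 60 and 41 calls, and 0 to 434 without 1 library. DESeq2 called 60 higher and 22 lower at members uncorrected, and 16 and 25 corrected. DESeq2's size factors in edgeR and the fit on all chromosomes left both counts at 0. The member median was −0.011 with the trends removed in edgeR and 0.08 to 0.32 without 1 library. With the replicate number as a replicate block, edgeR called 2208 genes and 214 at members. The numbers are shared without a stated pairing, and over genes the replicate difference in WT correlated with that in KD at 0.252. The cause of these differences was not tested. Depth limits the low genes, since KD replicate 2 held 2309549 counts.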

Other observations

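Members were spread unevenly over the chromosomes. Of protein-coding genes, 14.3% on chromosome 20, 13.1% on chromosome 19 and 13.0% on chromosome 22 started at a member, against 3.49% on chromosome X.

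On chromosomes 21, 22 and X, 93 measured genes started at members, and their values exist in 3 libraries, without a test. Of the 54 with a mean count of at least 50, KD replicate 1 was above both WT libraries in 31 and below both in 17, with a median log2 ratio of 0.09 (range −1.40 to 0.57). The same shares and median over all genes of these chromosomes were not computed, and these values rest on 1 KD library. No lean of the members can be read from them. Scaled to all counts of a library, the actin crosslinker FLNA had 4135 and 4418 CPM in WT and 5615 CPM in KD replicate 1, and the stress response factor ATF4 had 139 and 152 CPM in WT and 153 CPM in KD replicate 1.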
